A study of Mus musculus with 6 samples.

Results

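The miRNAs described here are those of red blood cells: miR-451a, both arms of miR-144, and the arms of miR-486a and miR-486b. They were chosen by name (mmu-miR-451a, mmu-miR-144-3p, mmu-miR-144-5p, mmu-miR-486a-5p, mmu-miR-486b-5p, mmu-miR-486a-3p and mmu-miR-486b-3p) and make up 7 of the 756 mature miRNAs in a small RNA sequencing table of the mouse dorsal striatum. The miR-486a-5p and miR-486b-5p values are almost equal, so the members are counted as 6. All groups were C57BL/6N mice aged 7 weeks with no genetic change. In the nicotine withdrawal group, intraperitoneal nicotine (0.5 mg/kg) was given on each of 3 days. Mecamylamine, a blocker of nicotinic acetylcholine receptors (3.0 mg/kg), was given 24 hours after the last dose to precipitate withdrawal. The saline group received saline injections, so the comparison covers both drugs together. The striatum was taken 1 week after the last injection, with 3 libraries in each group. Pooling of mice is not mentioned in the labels, and each library was taken as 1 mouse. Without that, a p-value covers no more than the spread of these samples. Whether blood was flushed from the vessels is not given in the sources used here.

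Mature miRNAs guide Argonaute proteins to messenger RNAs, mostly through a seed near the 5′ end. miR-144 and miR-451a are made from a single transcript that the red cell factor GATA1 switches on. miR-451a is cut by AGO2 and not by Dicer. The miR-486 gene lies in Ank1, which encodes a membrane skeleton protein of red cells and has a muscle form as well, so miR-486 is known from both tissues. In whole brain tissue these miRNAs are usually read as coming from blood in the vessels. In bulk tissue, fewer cells of a type and less RNA per cell cannot be told apart.

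The RefSeq sequences (GRCm38.p6) show how the miR-144 and miR-451a precursors differ, and 3 of the 7 members matched an entry by name. The miR-144 hairpin (chr11:78073005-78073070, plus strand) and the miR-451a hairpin (chr11:78073170-78073241, plus strand) are 99 bases apart. The submitters' processing notes name mm9, so these positions belong to the RefSeq build and not to the table. In the hairpins, written 5′ to 3′, capitals mark the mature miRNAs.
Mir144 hairpin: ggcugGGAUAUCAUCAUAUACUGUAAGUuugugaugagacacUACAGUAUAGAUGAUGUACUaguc
Mir451a hairpin: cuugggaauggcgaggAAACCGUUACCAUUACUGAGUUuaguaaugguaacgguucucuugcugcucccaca
The miR-144 precursor carries a mature arm on each side of its loop. Mature miR-451a fills bases 17 to 38 of a hairpin of 72 bases. Its bases 2 to 17 are complementary, without a break, to bases 40 to 55 of the same hairpin, so its 3′ end reaches into the loop. For the arms of miR-144 the longest such unbroken stretch is 9 bases.

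The mature sequences are shown for their seeds (bases 2 to 8, in capitals), together with miR-101a-3p, an abundant brain miRNA encoded on chromosome 4.
miR-451a: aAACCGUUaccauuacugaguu
miR-144-3p: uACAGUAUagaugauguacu
miR-144-5p: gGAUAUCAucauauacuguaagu
miR-101a-3p: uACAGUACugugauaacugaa
Among the 654 miRNAs of the table that have a RefSeq sequence, 0 others shared bases 2 to 8 with miR-451a, miR-144-3p or miR-144-5p. miR-101a-3p was the 1 that shared bases 2 to 7 with miR-144-3p, and none shared bases 2 to 7 with the other pair. It stood at 685585 ± 12162 normalized reads in withdrawal and 643233 ± 5015 in saline (SD, n = 3 each), whereas miR-144-3p stood at 706 ± 29.9 in withdrawal and 698 ± 6.63 in saline. Its log2 fold change was 0.09 ± 0.03 (SE), which did not pass the test (limma, Benjamini-Hochberg adjusted p = 0.0576). It passed at a filter of 50 (adjusted p = 0.0425), with median ratios (0.0473), equal library totals (0.0137), quantile normalization (0.0253) and a robust variance prior (0.0385).

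Values are normalized reads as the authors deposited them, in which each library's counts are scaled by 1 size factor. They lie on whole multiples of a step, and if a step is 1 read the libraries held from 44529730 to 53262896 reads in withdrawal and from 40111870 to 50480767 in saline. Reads were not scaled by length, since the mature sequences shown have 20 to 23 bases, and adapter ligation may favour some sequences. Of brain miRNAs, miR-9-5p ranked 6th and miR-124-3p 26th of 756 by mean level. The log2 fold changes (withdrawal over saline) come from limma on log2(value + 1) over the 699 miRNAs that reached 10 in at least 3 libraries, all 7 members among them. They are given ± SE, with a threshold of 0.05 on the adjusted p.

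The members differed widely in level. miR-486a-5p ranked 53rd and took 0.251 ± 0.00401% of normalized reads in withdrawal and 0.220 ± 0.00426% in saline. miR-451a ranked 154th, miR-144-3p 347th, miR-144-5p 369th, miR-486a-3p 413th and miR-486b-3p 662nd. The step between neighbours in this order was larger than the spread between libraries, except between the arms of miR-144. There, miR-144-3p exceeded miR-144-5p in 5 libraries, and in withdrawal 3 both stood at 677 normalized reads.

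**Figure D1:**
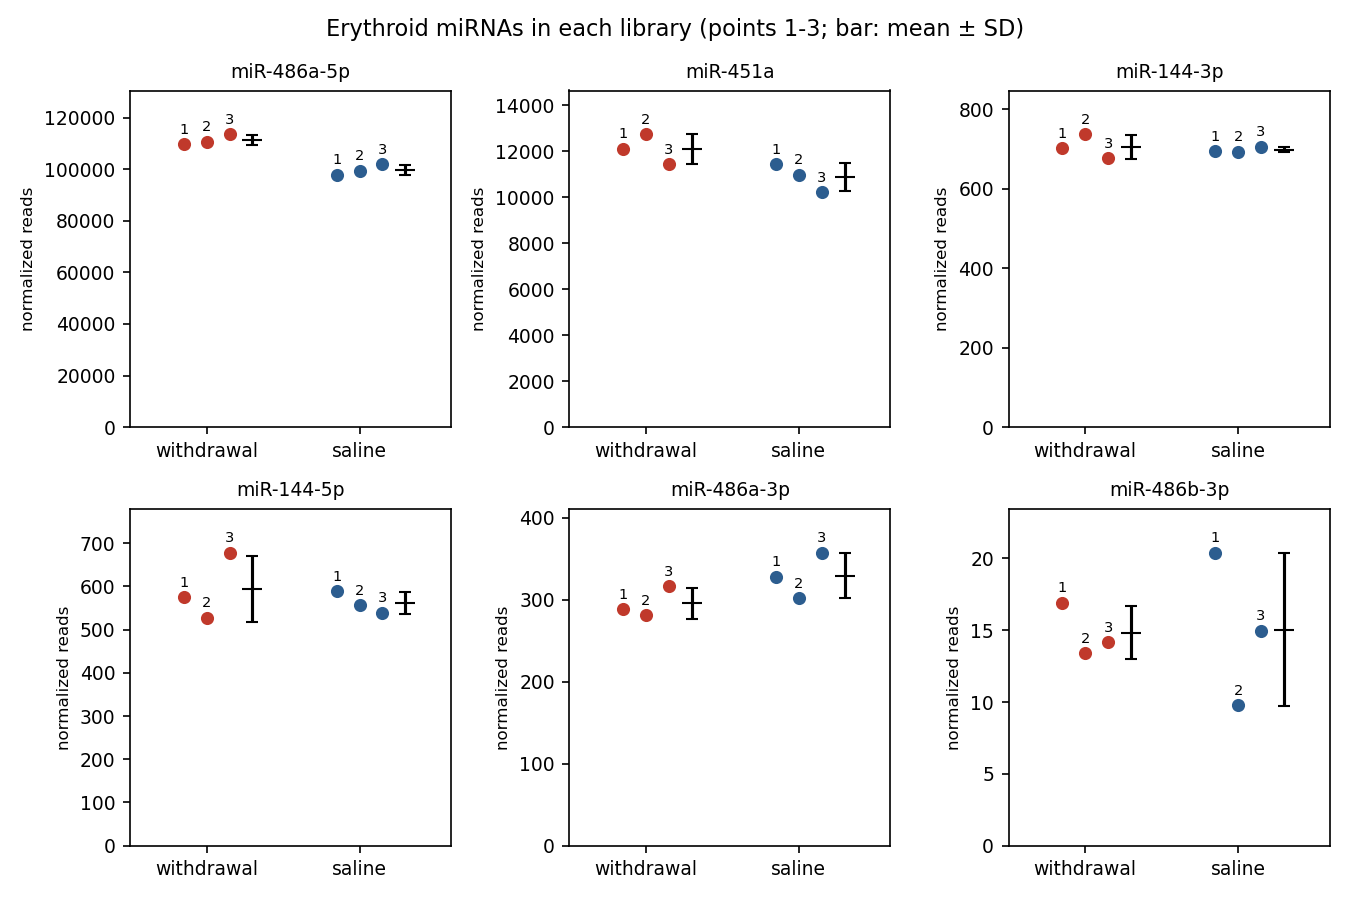
Normalized reads of the 6 distinct members in each library, with each axis starting at 0. Points numbered 1 to 3 are libraries, and bars show the mean ± SD. The miR-486a-5p libraries of the groups do not overlap, those of every other member do.

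The miR-486 5p arm, which took nearly all reads of its precursor, was the member that rose in withdrawal. miR-486a-5p stood at 109633, 110666 and 113468 normalized reads in withdrawal, against 97795, 99473 and 101888 in saline. Every withdrawal library lay above every saline library, and the gap between the groups was wider than the range within either. The log2 fold change was 0.16 ± 0.03 (95% interval 0.10 to 0.22), a fold of 1.12, and passed the test (limma, adjusted p = 0.00673). Of all 699 miRNAs tested, 6.58% passed (3.00% higher) and 27.6% had groups that did not overlap (13.0% with withdrawal above), against 1 of the 6 distinct members for each. The 46 calls were 21 higher and 25 lower, and with equal library totals 61 passed, 46 higher and 15 lower. The call was lost in limma without a trend of variance on level, where no miRNA of the table passed and 112 had an unadjusted p under 0.05 (adjusted p = 0.185 for miR-486a-5p), and with quantile normalization, where the log2 fold change was 0.12 (adjusted p = 0.134).

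The miR-486b-5p row was almost equal to that of miR-486a-5p. It stood at 109522, 110496 and 113285 normalized reads in withdrawal, against 97690, 99389 and 101766 in saline. It lay from 0.0840% to 0.162% below miR-486a-5p in every library. By step counts the gap was 112, 190 and 220 reads in withdrawal and 92, 94 and 122 in saline. RefSeq lists the gene of miR-486b (Mir3107) as overlapping Mir486 within Ank1 on chromosome 8, and how reads that match both were treated is not given in the sources used here. The rows are therefore counted as 1 result.

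Neither 3p arm of miR-486 passed the test. miR-486a-3p, the scarce partner strand, stood at 289, 281 and 317 normalized reads in withdrawal, against 328, 302 and 357 in saline. The groups overlapped, with withdrawal 3 above saline 2. Its log2 fold change was -0.15 ± 0.09 (95% interval -0.34 to 0.03), which did not pass (limma, adjusted p = 0.307). Unlike the 5p rows, the 3p rows of the a and b genes were far apart. miR-486b-3p stood at 16.9, 13.4 and 14.2 in withdrawal and 20.4, 9.78 and 15.0 in saline, so that miR-486a-3p exceeded it from 16.1 to 30.9 times. These were 11 to 18 reads a library by step counts, with a counting error of 23.6% to 30.2%. A change of miR-486b-3p was not detectable at this depth, with a 95% interval of the log2 fold change from -0.76 to 0.82.

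The ratio of the 5p to the 3p arm of miR-486a was higher in every withdrawal library than in any saline library, though it did not pass the test over all precursors. It stood at 380, 393 and 358 in withdrawal, against 298, 329 and 285 in saline. Its 5p row is almost equal to that of miR-486b-5p, and how shared reads were treated is not given. The ratio may therefore not belong to miR-486a alone. The groups did not overlap, as was so for 27.1% of the 203 precursors with both arms tested. The log2 ratio differed by 0.31 ± 0.07 (95% interval 0.13 to 0.49; limma, adjusted p = 0.129), the 7th smallest p of the 203. No precursor passed in limma with Benjamini-Hochberg adjustment (0.00%), and 33 had an unadjusted p under 0.05. The 5p to 3p ratio of miR-486b rests on the few reads of its 3p arm, and its log2 ratio differed by 0.13 ± 0.27.

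miR-451a, the main miRNA of mature red cells, had a mean nearly as far above saline as miR-486a-5p, with a wider spread between libraries. It stood at 12107, 12729 and 11427 normalized reads in withdrawal, against 11436, 10969 and 10212 in saline. The groups touched, since withdrawal 3 lay just below saline 1, while the other withdrawal libraries lay above every saline library. The log2 fold change was 0.15 ± 0.05 (95% interval 0.05 to 0.25) and did not pass (limma, adjusted p = 0.0688). It passed with either library at which the groups touched left out, saline 1 (0.19, adjusted p = 0.0406) or withdrawal 3 (0.19, adjusted p = 0.0103). With equal library totals it also passed (0.19, adjusted p = 0.0312). Without saline 3 it was 0.11 (adjusted p = 0.217), and without withdrawal 2 it was 0.12 (adjusted p = 0.26). Nor did it pass without saline 2 (adjusted p = 0.164) or withdrawal 1 (0.114), with quantile normalization (0.229) or in limma without a trend (0.312). Counting error was 0.838% to 0.995% of each value, under the spread between libraries of a group.

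The arms of miR-144, which in red cells comes from the same transcript as miR-451a, showed no change past the test. miR-144-3p, the arm that is usually loaded into Argonaute, stood at 703, 737 and 677 normalized reads in withdrawal, against 695, 693 and 706 in saline. Its saline libraries lay inside the range of the withdrawal libraries. Its log2 fold change was 0.01 ± 0.06 (95% interval -0.11 to 0.14; limma, adjusted p = 0.933).

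miR-144-5p varied more, at 575, 528 and 677 normalized reads in withdrawal and 589, 556 and 539 in saline. Withdrawal libraries held both its highest and its lowest value. Its log2 fold change was 0.07 ± 0.08 (95% interval -0.11 to 0.25; limma, adjusted p = 0.659), and without withdrawal 3 it was -0.03. The arms did not order the withdrawal libraries alike, since withdrawal 2 was the highest library for miR-144-3p and the lowest for miR-144-5p, and withdrawal 3 was the reverse. The 5p to 3p ratio of miR-144 stood at 0.819, 0.716 and 1.00 in withdrawal, against 0.847, 0.803 and 0.764 in saline. Its log2 ratio differed by 0.06 ± 0.13 (limma, adjusted p = 0.872), and the groups overlapped. The 3 members of the shared precursor transcript had 528 normalized reads or more in each library, so counting error (at most 4.39%) was below the span of miR-144-5p in withdrawal. The span of miR-144-3p was narrower beside its counting error (3.48% to 4.04% of each value), so the order of its libraries is less certain.

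**Figure D2:**
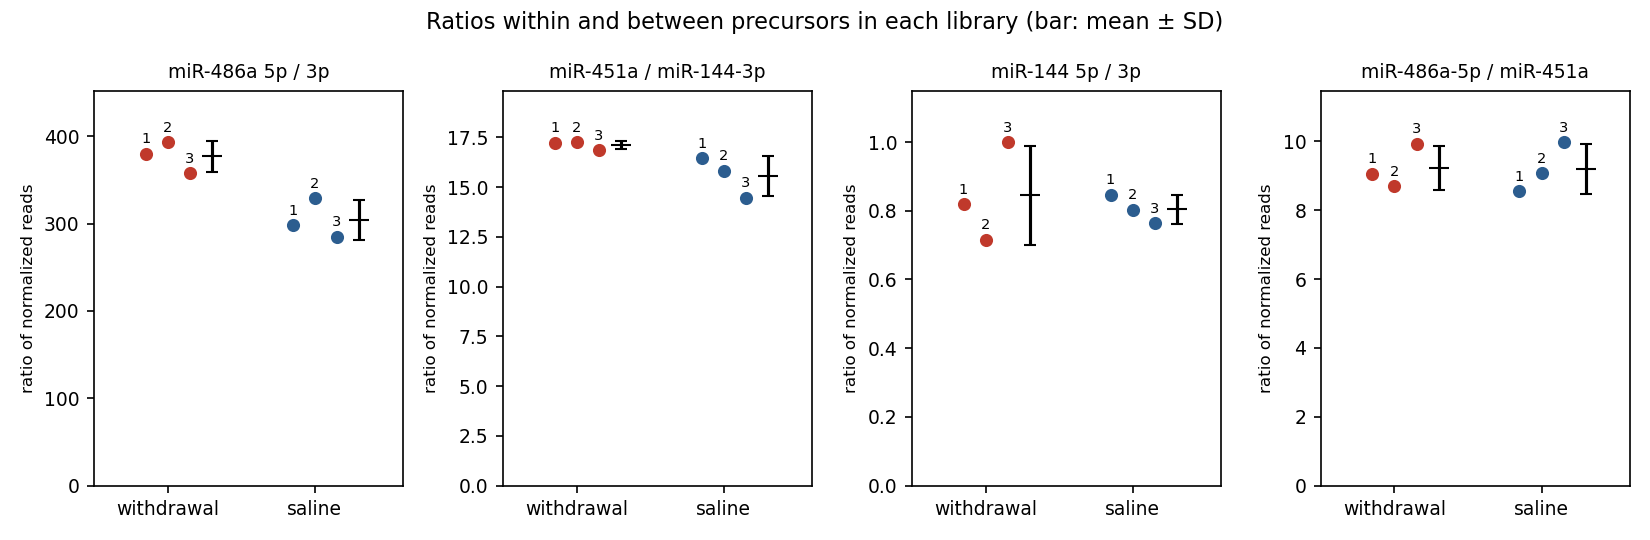
Ratios of normalized reads in each library, with axes starting at 0 and bars for the mean ± SD. The groups do not overlap for the miR-486a 5p to 3p ratio (358 to 393 in withdrawal, 285 to 329 in saline). Nor do they for the ratio of miR-451a to miR-144-3p (16.9 to 17.3 in withdrawal, 14.5 to 16.4 in saline), by a small gap. For the other ratios they overlap.

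Ratios between members were compared over the libraries, where 3 against 3 cannot give a p below 0.1. miR-451a exceeded miR-144-3p 17.2, 17.3 and 16.9 times in withdrawal, against 16.4, 15.8 and 14.5 times in saline. The groups did not overlap, as was so for 27.1% of the 5p to 3p ratios of 203 precursors. How often ratios between other miRNAs keep the groups apart was not tested. The closest libraries were saline 1 (16.4) and withdrawal 3 (16.9). Counting error of miR-144-3p by step counts was 3.48% to 4.04% of each value, so this gap is not clear of it. The log2 ratio differed by 0.14 ± 0.06. The exact two-sided permutation test gave p = 0.1, and 0.3 after adjustment over the 3 ratios compared. miR-486a-5p exceeded miR-451a 9.06, 8.69 and 9.93 times in withdrawal, against 8.55, 9.07 and 9.98 times in saline. The groups overlapped fully, and the log2 ratio of miR-451a to miR-486a-5p differed by 0.00 ± 0.09 (exact permutation p = 1), with either sign when a library was left out (-0.065 to 0.0491).

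The ratio of miR-451a to miR-23a-3p, which is used in plasma as a sign of burst red cells, stood at 1.23, 1.27 and 1.12 in withdrawal, against 1.12, 1.08 and 1.06 in saline. Withdrawal 3 lay just below saline 1, so the groups overlapped. The log2 ratio differed by 0.15 ± 0.06 (exact two-sided permutation p = 0.2, adjusted p = 0.3). Whether the ratio has its plasma meaning in brain tissue was not tested.

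Although miR-451a and miR-486a-5p differed between the groups by nearly the same amount, they did not order the libraries of a group alike. In withdrawal, miR-451a was highest in library 2 and lowest in library 3, and miR-486a-5p was highest in library 3 and lowest in library 1. In saline their orders were opposite, with library 1 the highest for miR-451a and the lowest for miR-486a-5p. The root mean square difference of their log2 values, centred on their means over the 6 libraries, was 0.09.

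Other miRNAs ran closer to each of them. The nearest to miR-451a were miR-301b-3p (0.02), miR-300-5p (0.03) and miR-29b-3p (0.04), and miR-144-3p stood at 0.09. Of these, miR-29b-3p passed the test with a log2 fold change of 0.20 ± 0.04 (limma, adjusted p = 0.0157), though not without withdrawal 2 (adjusted p = 0.0959) or with quantile normalization (0.223). The nearest to miR-486a-5p were miR-449a-5p, miR-344b-3p and miR-99a-3p (0.03 each), with log2 fold changes of 0.14 ± 0.04, 0.10 ± 0.03 and 0.11 ± 0.04, none of which passed, though miR-449a-5p did without withdrawal 1 (adjusted p = 0.042). With equal library totals miR-449a-5p and miR-344b-3p passed (adjusted p = 0.0299 and 0.0176), and with quantile normalization miR-99a-3p did (0.0447). These are descriptions over 6 libraries that share the group difference.

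**Figure D3:**
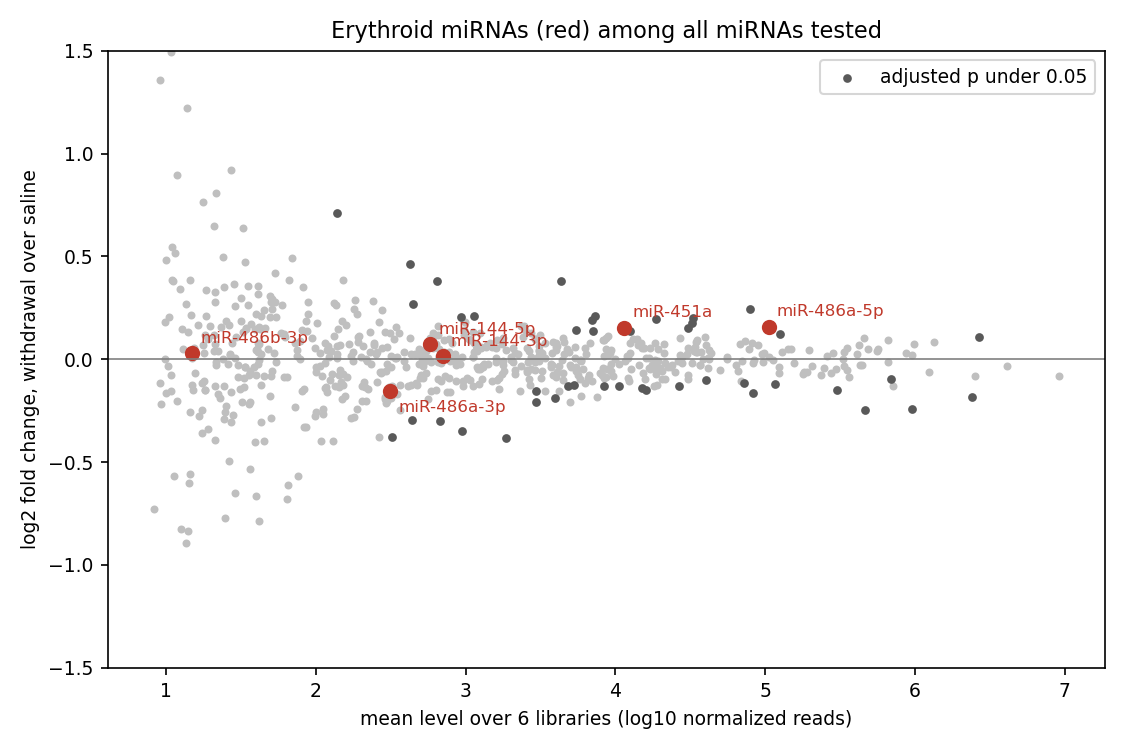
Log2 fold change (withdrawal over saline) against mean level (log10 normalized reads) for the 699 miRNAs tested, with the 6 distinct members in red and miRNAs past the test in dark grey; 3 miRNAs lie beyond the axis limit of 1.5. miR-486a-5p and miR-451a share a height of about 0.16 and 0.15, and miR-144-3p lies at 0.01.

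Most members had a small positive difference, and most did not pass the test. Of the 6 distinct members 5 had a positive log2 fold change and 1 passed, with a median of 0.05. Those of miR-144-3p (0.01 ± 0.06), miR-144-5p (0.07 ± 0.08) and miR-486b-3p (0.03 ± 0.36) were smaller than their SE. They also changed sign with a library left out, so the count of positive values is not evidence of a shared rise. Over all 699 miRNAs tested, 355 were positive, 46 passed (6.58%) and the median was 0.00. The summed level of the members other than the miR-486b rows stood at 123308, 124941 and 126567 normalized reads in withdrawal, against 110844, 111993 and 113702 in saline. This sum is mostly miR-486a-5p.

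miRNAs that red cells also hold in quantity, but that most tissues express, did not move with miR-486a-5p as a list. Of the 12 listed, 3 fell, 1 rose and 8 did not pass, with a median log2 fold change of -0.03. miR-16-5p, the most abundant of them and a brake on cell cycle genes, fell by 0.15 ± 0.03 on the log2 scale (limma, adjusted p = 0.00999). It stood at 287252 ± 8103 normalized reads in withdrawal and 318029 ± 6652 in saline (SD, n = 3 each). It did not pass without saline 2 (adjusted p = 0.0716), and with quantile normalization it stood at -0.04 (adjusted p = 0.567). The others that passed, named after their values were seen, were miR-15a-5p (-0.14 ± 0.03), miR-92a-3p (-0.12 ± 0.03) and miR-106b-5p (0.14 ± 0.03). The call of miR-15a-5p was lost without saline 2 or withdrawal 2 (adjusted p = 0.0687 and 0.0516) and with quantile normalization (0.0914). That of miR-92a-3p was lost without saline 2, saline 3, withdrawal 1 or withdrawal 2 (adjusted p up to 0.106) and with equal library totals (0.0537). That of miR-106b-5p was lost without any 1 saline library or withdrawal 2 (adjusted p up to 0.164) and with quantile normalization (0.0655). Together the 12 lay between 743261 and 761354 in withdrawal and between 776693 and 793247 in saline. The part of red cells in these widely expressed miRNAs was not tested.

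Of 5 miRNAs known to decline as red cells mature, 1 fell and 4 did not pass, with 4 of the 5 positive and a median of 0.05. Of these, miR-150-5p, miR-155-5p and miR-223-3p are also in the leukocyte and microglia list below, so the lists are not separate readouts. The one that fell was miR-150-5p, also a lymphocyte miRNA (-0.13 ± 0.03, limma, adjusted p = 0.0246), and the most abundant, miR-221-3p, stood at 0.05 ± 0.02 (adjusted p = 0.244). miR-150-5p did not pass without saline 2, saline 3, withdrawal 1 or withdrawal 2 (adjusted p up to 0.14), with equal library totals (0.0919) or with quantile normalization (0.0945). Their summed level lay between 142264 and 143923 in withdrawal and between 140581 and 142541 in saline, ranges that overlap.

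Markers of other cell types were read beside these values. Over all 699 miRNAs tested, 355 were positive, 6.58% passed (3.00% higher) and the median log2 fold change was 0.00. In the leukocyte and microglia list, 2 of 7 tested members rose, 1 fell and 4 did not pass, with 5 of the 7 positive and a median log2 fold change of 0.15, near the values of miR-486a-5p and miR-451a. In that list miR-146b-5p, which restrains inflammatory signalling, was both the most abundant and the one with the smallest p (0.24 ± 0.04, limma, adjusted p = 0.00673, and 0.078 with quantile normalization). The other that rose was miR-146a-5p (0.19 ± 0.04), named after its values were seen, which did not pass without saline 2 or saline 3 (adjusted p = 0.0807 and 0.0515) or with quantile normalization (0.191), and the one that fell was miR-150-5p. The list's members together lay between 122991 and 136574 in withdrawal and between 115059 and 118664 in saline. This sum is mostly miR-146b-5p. Of 6 miRNAs of endothelium and vessel wall, 3 were positive and 5 did not pass (median 0.01), and the endothelial miR-126a-3p fell by 0.10 ± 0.03 on the log2 scale (adjusted p = 0.0347). It did not pass without saline 2, saline 3, withdrawal 1 or withdrawal 2 (adjusted p up to 0.142) or with equal library totals (-0.07, adjusted p = 0.134). The most abundant of them was miR-143-3p of smooth muscle, at 0.08 ± 0.03, which passed with equal library totals (adjusted p = 0.026) and with quantile normalization (0.0375). Summed over the list, the level lay between 1306620 and 1340919 in withdrawal and between 1272724 and 1300181 in saline. This sum is mostly miR-143-3p. The part of these cell types in the miR-486a-5p result was not tested.

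Muscle was compared because miR-486 is abundant there. Among the 6 muscle miRNAs listed, miR-1a-3p rose by 0.27 ± 0.06 (limma, adjusted p = 0.0246), with 491 ± 13.1 normalized reads in withdrawal and 407 ± 7.03 in saline. Its call was lost with any library but withdrawal 3 left out (adjusted p from 0.0517 to 0.0953) and with quantile normalization (0.0621). The other 5 did not pass, 2 of the 6 were positive (median -0.01), and the most abundant, miR-133a-3p, stood at 0.00 ± 0.03, with 5817 ± 121 normalized reads in withdrawal and 5824 ± 44.0 in saline. The summed level of all 6 lay between 7263 and 7460 in withdrawal and between 7133 and 7333 in saline, ranges that overlap. This sum is mostly miR-133a-3p. The part of muscle in the miR-486a-5p result was not tested.

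Of 7 tested choroid plexus and epithelial miRNAs, miR-141-3p rose (0.71 ± 0.13, limma, adjusted p = 0.00759, 0.0539 without saline 2 and 0.0655 with quantile normalization) and the most abundant, miR-204-5p, stood at 0.07 ± 0.03. All 7 were positive, as were 355 of all 699 miRNAs tested. The median of the 7 was 0.14, near the values of miR-486a-5p and miR-451a. The list's summed level lay between 94526 and 96880 in withdrawal and between 90016 and 93446 in saline. This sum is mostly miR-204-5p. Of 6 neuronal and oligodendrocyte miRNAs 2 fell, miR-338-3p (-0.16 ± 0.03, adjusted p = 0.00723) and, named after its values were seen, miR-138-5p (-0.25 ± 0.05, adjusted p = 0.0687 without saline 2), and miR-9-5p stood at 0.09 ± 0.03 (adjusted p = 0.0421 with equal library totals). Of these 6, 2 were positive (median -0.08). Their sum lay between 2900883 and 2975108 in withdrawal and between 2985799 and 3001132 in saline. The part of these cell types in the members' values was not tested.

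**Figure D4:**
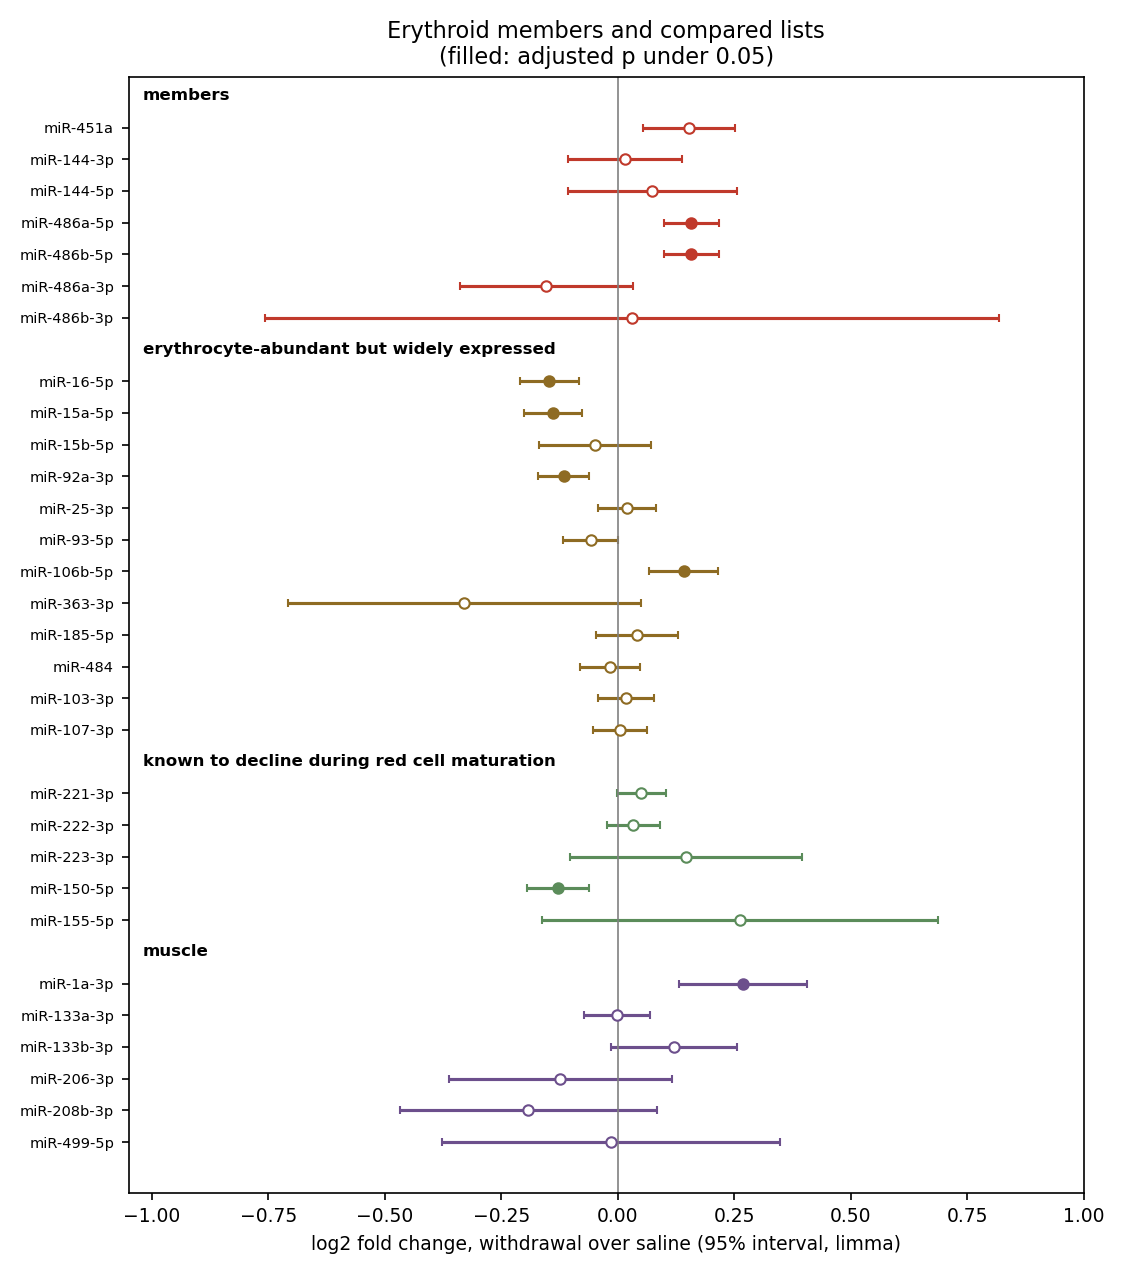
Log2 fold changes (withdrawal over saline) with 95% intervals from limma for the members, miRNAs also abundant in red cells, miRNAs that decline in red cell maturation and muscle miRNAs, with filled points for an adjusted p under 0.05. The filled points above 0 are the 5p rows of miR-486, miR-106b-5p and miR-1a-3p. Those below 0 are miR-16-5p, miR-15a-5p, miR-92a-3p and miR-150-5p.

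**Figure D5:**
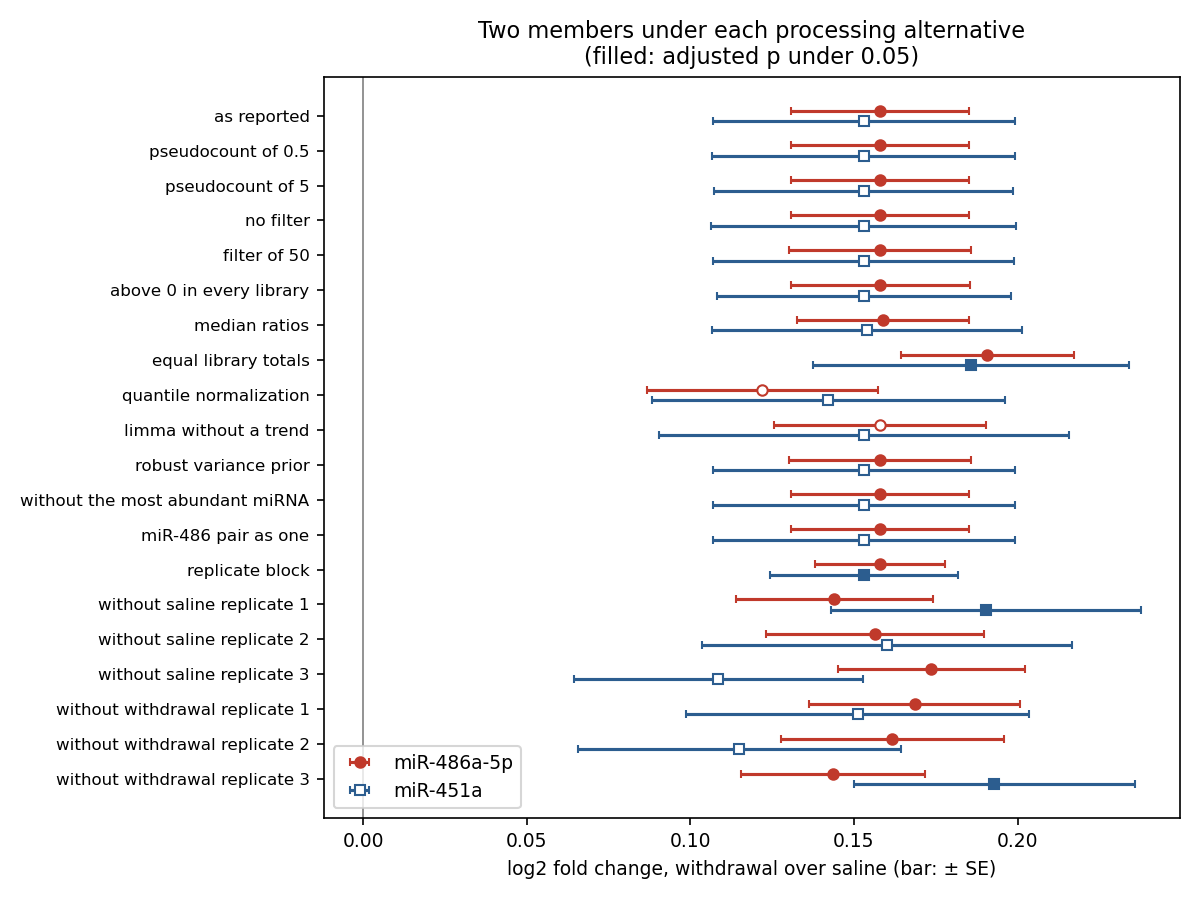
Log2 fold change ± SE of miR-486a-5p (circles) and miR-451a (squares) under each processing alternative, filled where the adjusted p is under 0.05. Both stay above 0 in all 19 alternatives, between 0.12 and 0.19 for miR-486a-5p and between 0.11 and 0.19 for miR-451a, and pass in 17 and 4 of them.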

How the data were processed

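Total RNA was extracted with Trizol and sequenced as small RNA libraries (TruSeq), per the labels' protocols. The authors deposited 1 table of normalized signal (read counts scaled by 1 size factor a library). The submitters' processing notes name DESeq2 and mm9, with no role; the aligner, the miRNA annotation, filters and the treatment of shared reads are not given in these sources. In each library 100% of values were whole multiples of a step (within 0.01), with a smallest positive value of 4 or 5 steps. No value of 1 step shows that a step is 1 read, so no count test was run. Depth and counting error by step counts hold only if it is, and cover counting error only. No library was a copy of another of its group (chi-square over degrees of freedom between 21.4 and 159).

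limma 3.58.1 (R 4.3.3), two-sided and with a variance trend over level, was fitted to log2(value + 1) of the 699 miRNAs with at least 10 in at least 3 libraries, with Benjamini-Hochberg adjusted p under 0.05 as the threshold. The added 1 shrinks the fold changes of low miRNAs. Arm ratios were tested by limma without a trend, ratios between members by exact permutation. The fit was tested on data simulated from its own variance estimates, so that test cannot judge the choice of a variance trend. The members, lists and alternatives were chosen with earlier results of these data known. Named miRNAs are the members, for each list its most abundant miRNA and that with the lowest p, and the 3 nearest to miR-451a and to miR-486a-5p; miR-101a-3p was named for its seed, and miR-124-3p and miR-23a-3p for the tissue check and a ratio, and a few that passed in a list after their values were seen. Sequences and gene overlaps are from RefSeq (GRCm38.p6). Python 3.11.15, pandas 2.3.3 and scipy 1.17.1 were used for tables and permutation tests.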

Additional observations from a re-analysis of the deposited data

How the results depend on the processing

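The members' calls depend on the fit. The count of distinct members past the threshold (1) was 0 with quantile normalization and in limma without a trend, 2 with equal library totals and with a replicate block (the replicate number as a term), and 1 to 2 with a library left out. The log2 fold change of miR-486a-5p was 0.12 with quantile normalization and 0.16 without a trend, where it did not pass (adjusted p = 0.134 and 0.185; range over its alternatives 0.00032 to 0.185). That of miR-451a passed at 0.19 with equal library totals and at 0.15 with the replicate block (adjusted p = 0.00323; range 0.00323 to 0.312), and was 0.11 to 0.19 with a library left out. The replicate numbers were not shown to pair libraries (r = -0.07, 0.09 and 0.04 between same-numbered libraries, from -0.16 to 0.10 between others). Over all miRNAs 46 passed (21 higher, 25 lower), 22 with quantile normalization, 0 without a trend (112 at an unadjusted p under 0.05), 106 with the replicate block (49 higher, 57 lower), 61 with equal totals (46 higher, 15 lower) and 13 to 58 with a library left out (13 without saline 2, 22 without saline 3, 21 without withdrawal 2). Arm ratios past the threshold numbered 0 to 1 with a library left out, the 1 being without withdrawal 3. Values that changed sign had not passed: miR-144-3p (-0.0168 to 0.0439 with a library left out), miR-144-5p (-0.0257 to 0.15), miR-486b-3p (-0.23 to 0.26), miR-133a-3p (0.0309 with equal totals, 0.0326 with quantile normalization, -0.0173 to 0.0127 with a library left out), miR-221-3p (-0.00896 with quantile normalization), and the 5p to 3p ratios of miR-486b (-0.0013 with quantile normalization, -0.12 to 0.39 with a library left out) and of miR-144 (-0.0695 to 0.17). The log2 ratio of miR-451a to miR-486a-5p also changed sign (-0.065 to 0.0491 with a library left out). Normalized totals were lower in withdrawal (44098338 to 44437368) than in saline (44870956 to 45619789). Equal totals therefore scale withdrawal up against saline, and the median log2 fold change over all miRNAs tested moved from 0.00257 to 0.0351. The cause of the other shifts was not tested, beyond the fewer samples when a library is left out. The log2 ratio of miR-451a to miR-144-3p stayed between 0.09 and 0.18. Depth limits miR-486b-3p most, at 11 to 18 reads by step counts.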
